A study of Homo sapiens with 8 samples.

Results

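The genes described here are the 3 subunits of the cerebral cavernous malformation (CCM) complex, KRIT1, CCM2 and PDCD10, with the partners that bind them directly and the lncRNA ENSG00000226239, which lies across exons of CCM2L on the other strand. The partners are CCM2L, ITGB1BP1, HEG1, STK24, STK25 and MAP3K3. The set holds 10 of the 57820 genes of the count table, and all 10 were found by gene identifier. They were chosen by known function and selected on the measured SP to NSP differences in CPM of CCM2L, ENSG00000226239 and ITGB1BP1, so their levels and fold changes are given as a description, without a test. The data are RNA-seq counts of side population (SP) and non-side population (NSP) cells, with 4 libraries each, numbered 1 to 4 in both groups. All cells were from J82, a long-established line of human bladder cancer, and the labels name no engineered change or drug treatment in either group. SP cells, which keep little of the DNA dye Hoechst, and NSP cells, the remaining cells, were separated by flow sorting. Total counts ran from 1431823 to 1697218 in SP libraries and from 1489033 to 2073526 in NSP libraries, which limits the precision for genes with few counts. J82 is a single line, and no source says that the 4 libraries of a group came from separate cultures or sorts, so every p-value below measures the spread between these libraries, which may be technical.

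KRIT1, CCM2 and PDCD10 are adaptor proteins without enzyme activity that bind each other. Loss of any of them in the endothelium of the brain causes cavernous malformations, which are clusters of leaky, dilated vessels. The complex is held at the membrane by HEG1, a transmembrane receptor whose tail binds KRIT1, and by the small GTPase RAP1. It restrains the kinase MAP3K3 (MEKK3), whose cascade through MAP2K5 and MAPK7 raises the transcription factors KLF2 and KLF4. ITGB1BP1 (ICAP1) binds the tail of the beta-1 integrin subunit, and also KRIT1. STK24 and STK25 are kinases of the germinal centre kinase III family that bind PDCD10, and CCM2L is a paralog of CCM2 that also binds MAP3K3 and is best known in endothelial cells.

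CCM2L (ENSG00000101331.11) is a gene of the plus strand of chromosome 20, at 30598241 to 30619983 in GRCh37, and ENSG00000226239 (ENSG00000226239.1) is on the minus strand at 30593474 to 30619394. In the current annotation 785 bp of their exons lie across each other, which is 30.2% of the exon length of CCM2L and 12.6% of that of the lncRNA. The overlap of a single lncRNA transcript with CCM2L exons was 527 to 785 bp. The counts were made on an earlier release of the gene models, so exon lengths and overlaps may differ from those used for counting. Of the coding exons of CCM2L, 2 lie whole inside an exon of the lncRNA. They are printed here because a read from them could be counted for either gene, according to the strand given to it. Both are from the plus strand of GRCh37, which is the coding strand of CCM2L, and have a GC content of 56.2%.
CCM2L exon of 64 bp, chr20:30613659-30613722: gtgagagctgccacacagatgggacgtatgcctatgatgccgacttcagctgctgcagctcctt
CCM2L exon of 130 bp, chr20:30616798-30616927: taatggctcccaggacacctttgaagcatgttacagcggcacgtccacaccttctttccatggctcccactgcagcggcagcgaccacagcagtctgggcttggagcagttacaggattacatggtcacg

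**Figure D1:**
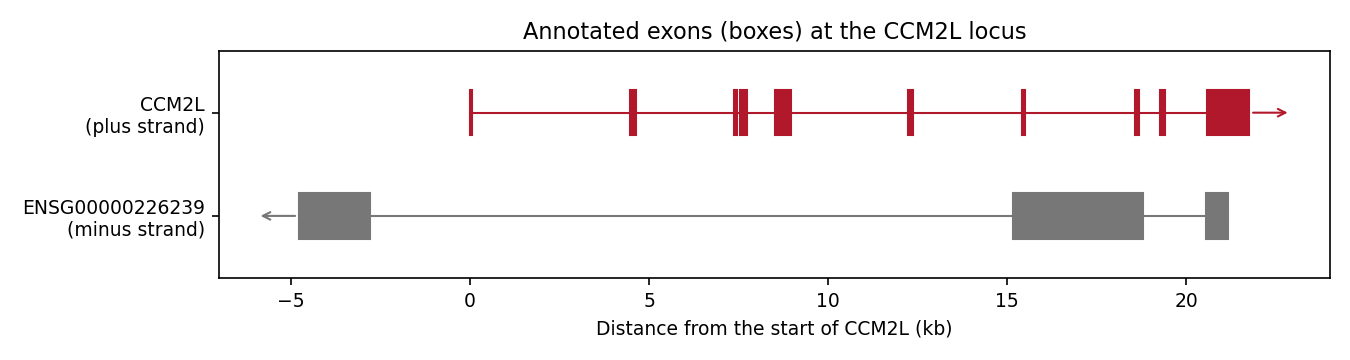
Annotated exons of CCM2L (red, plus strand) and ENSG00000226239 (grey, minus strand), as boxes joined by a line for each gene, against the distance in kb from the start of CCM2L. Arrows point in the direction of transcription, and the last exon of CCM2L and the first exon of the lncRNA share most of their overlap at the right-hand end.

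ITGB1BP1 (ENSG00000119185.8) lies on the minus strand of chromosome 2, from 9543604 to 9563657 of GRCh37. Its start is 123 bp from that of CPSF3, a gene of the plus strand that encodes the endonuclease of mRNA 3' end cleavage, so the 2 genes are transcribed away from each other out of a short shared region. The promoter window of ITGB1BP1, from 250 bases before to 50 after a RefSeq start, is printed here because ITGB1BP1 was the member called lower. It is on the minus strand of GRCh38.p14, with the first transcribed base in capitals.
ITGB1BP1, chr2:9423479-9423778: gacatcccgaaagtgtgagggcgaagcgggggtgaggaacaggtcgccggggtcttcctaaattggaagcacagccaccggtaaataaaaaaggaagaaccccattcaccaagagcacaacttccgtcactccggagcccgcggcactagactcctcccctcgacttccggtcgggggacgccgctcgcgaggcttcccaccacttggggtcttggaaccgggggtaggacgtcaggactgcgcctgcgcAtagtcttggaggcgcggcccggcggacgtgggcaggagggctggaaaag

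The other members lie apart in the genome, with positions again in GRCh37. KRIT1 is on the minus strand of chromosome 7 at 91826812 to 91875480, and CCM2 on the plus strand of the same chromosome at 45039074 to 45116068. PDCD10, at 167401086 to 167452727, and HEG1, at 124684554 to 124774841, are both on the minus strand of chromosome 3. STK24 is on the minus strand of chromosome 13 at 99097439 to 99230194, STK25 on the minus strand of chromosome 2 at 242432085 to 242449145, and MAP3K3 on the plus strand of chromosome 17 at 61699775 to 61773665.

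The RefSeq promoter table held 16 windows for 8 of the 10 genes, and not CCM2L or ENSG00000226239. The forkhead core GTAAACA, searched on both strands (TGTTTAC), was in 1 of these 16 windows and in 3.42% of the 35116 windows of all genes. The window with the match is that of the third listed start of CCM2, and neither window of ITGB1BP1 held these letters.

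CPM is the count of a gene scaled by the TMM-normalized size of its library. Of the 10 genes, 8 had enough counts to be tested and CCM2L and PDCD10 did not, and the tested set was 9309 genes. Calls came from the quasi-likelihood test of edgeR, without the replicate number in the model. They needed a fold change over 1.3 with a p-value, adjusted by Benjamini-Hochberg, under 0.05. Of the 8 tested members, 1 was called higher in SP cells (ENSG00000226239) and 1 lower (ITGB1BP1), where 1.63% of all tested genes were called higher and 2.03% lower. Of the 8, 1 stood above and 1 below NSP cells without overlap of the libraries, where 4.78% of all tested genes stood above, 4.97% below and 9.75% either way. The other 6 had log2 fold changes between -0.28 and 0.23. The median log2 fold change was 0.0042 over the 8 tested members and 0.015 over all tested genes. Since this contrast was used to choose the genes, nothing is read from these counts. In bulk RNA, fewer cells that express a gene and less RNA per cell cannot be told apart.

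**Figure D2:**
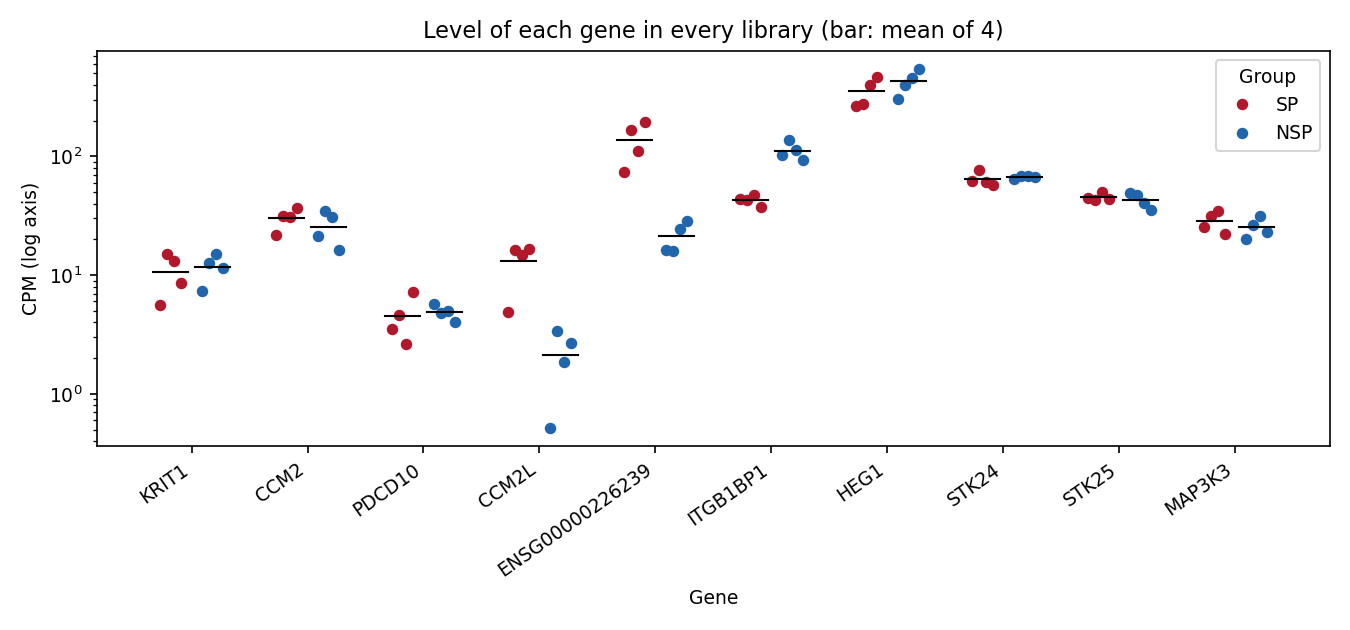
CPM on a log axis of each of the 10 genes in the 4 SP libraries (red) and the 4 NSP libraries (blue), with the mean of each group as a bar. The groups do not overlap for CCM2L and ENSG00000226239, where SP cells are above, and for ITGB1BP1, where SP cells are below, and they overlap for the other 7.

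The lncRNA ENSG00000226239 was the member with the largest difference between SP and NSP cells. It had 73.4, 167, 110 and 193 CPM in SP replicates 1 to 4, from 104 to 267 counts. In NSP replicates 1 to 4 it had 16.2, 16, 24.4 and 28.4 CPM, from 31 to 42 counts. The lowest SP library, replicate 1, was still above the highest NSP library. Its fitted log2 fold change was 2.69 (standard error 0.29), a 6.47-fold difference, which placed it at rank 4 from the top by fold change among the 9309 tested genes. It was higher in the SP library within each replicate number, with log2 ratios of 2.18 to 3.39.

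CCM2L itself, the paralog of CCM2, was low in both groups and differed in the same direction. The SP libraries held 7, 25, 28 and 23 counts, or 4.94, 16.4, 14.8 and 16.6 CPM. The NSP libraries held 1, 7, 3 and 4 counts, or 0.521, 3.39, 1.87 and 2.71 CPM. All SP libraries lay above all NSP libraries, and SP replicate 1 was the lowest SP library for CCM2L as it was for the lncRNA. Without a filter on low counts the log2 fold change was 2.58 (standard error 0.43), from 83 counts over the SP libraries and 15 over the NSP libraries. It ranged from 2.26 without NSP replicate 1 to 2.97 without NSP replicate 2 over the 5 fits with a library left out in which CCM2L was tested. CCM2L had 9.05% of the counts of the pair in SP cells (95% Wilson interval 7.36 to 11.1%) and 9.38% in NSP cells (5.76 to 14.9%). The interval of each group held the share of the other group. Intervals of this kind cover counting error only. The counts of both genes added together were 111 to 290 in single SP libraries and 32 to 46 in single NSP libraries, with a log2 fold change of 2.69 (standard error 0.29).

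ITGB1BP1 was the member that was lower in SP cells. It had 43.8, 42.7, 47.2 and 37.5 CPM in SP replicates 1 to 4, from 52 to 89 counts. In NSP replicates 1 to 4 it had 103, 137, 112 and 93.5 CPM, from 138 to 283 counts. The 4 SP libraries lay close together, and every one of them was below every NSP library. Its fitted log2 fold change was -1.38 (standard error 0.17), a 2.60-fold difference, which placed it at rank 78 from the bottom by fold change. The log2 ratios within the numbers 1 to 4 were -1.23, -1.68, -1.25 and -1.32. The neighbour CPSF3, which starts 123 bp away in the other direction, had a mean of 5.47 ± 1.82 CPM over the SP libraries against 5.10 ± 1.22 CPM over the NSP libraries (SD, n = 4) and too few counts for the test. ASAP2, an ARF GTPase-activating protein whose 3' end lies across 2209 bp of ITGB1BP1 exons on the other strand, had 3 to 13 counts in each SP library, 9 to 18 in each NSP library, and it too was not tested.

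For each of the core subunits the libraries of the groups overlapped. CCM2, the scaffold that joins KRIT1 to PDCD10 and MAP3K3, had a mean of 30.2 ± 6.18 CPM over the SP libraries against 25.6 ± 8.30 CPM over the NSP libraries (SD, n = 4), with a log2 fold change of 0.23 (standard error 0.25). Its log2 ratio was 1.18 in the pair numbered 4, where NSP cells were at 16.3 CPM, the lowest value of the 8 libraries, and between -0.12 and 0.03 in the other 3 pairs. KRIT1, the subunit that binds HEG1, RAP1 and ITGB1BP1, had a mean of 10.7 ± 4.31 CPM over the SP libraries against 11.6 ± 3.21 CPM over the NSP libraries (SD, n = 4), with a log2 fold change of -0.09 (standard error 0.33). Its counts were 8 to 25 in single SP libraries and 14 to 26 in single NSP libraries, and its sign changed with the library left out. PDCD10, the subunit that binds the germinal centre kinases, was the member with the fewest counts, 5 to 10 in single SP libraries and 6 to 11 in single NSP libraries. It had a mean of 4.5 ± 1.98 CPM over the SP libraries against 4.91 ± 0.684 CPM over the NSP libraries (SD, n = 4), and without a filter on low counts its log2 fold change was -0.18 (standard error 0.47).

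HEG1, the membrane receptor of the complex, had the most counts of the 10 genes, 377 to 751 in single SP libraries and 586 to 824 in single NSP libraries. Its levels were 266, 276, 398 and 463 CPM in SP replicates 1 to 4. They were 305, 399, 457 and 546 CPM in NSP replicates 1 to 4. The groups overlapped, but within every number the SP library was lower, with log2 ratios of -0.53 to -0.20. The log2 fold change was -0.28 (standard error 0.21), and HEG1 was called in none of the 17 fits, including the fit with the replicate number as a block.

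The groups also overlapped for the 3 kinases of the set. STK24 had a mean of 64.1 ± 8.24 CPM over the SP libraries against 67.0 ± 1.75 CPM over the NSP libraries (SD, n = 4), with a log2 fold change of -0.06 (standard error 0.16). STK25 had a mean of 45.4 ± 3.42 CPM over the SP libraries against 43.1 ± 6.36 CPM over the NSP libraries (SD, n = 4), with a log2 fold change of 0.07 (standard error 0.18). The standard errors of these 2 germinal centre kinases were, with that of ITGB1BP1, the smallest of the set. MAP3K3, the kinase that the complex restrains, had a mean of 28.4 ± 5.54 CPM over the SP libraries against 25.3 ± 4.72 CPM over the NSP libraries (SD, n = 4), with a log2 fold change of 0.18 (standard error 0.22). STK24 and STK25 are related in sequence, as are CCM2 and CCM2L, and no source tells how reads matching both genes of such a pair were counted, so their values are uncertain to that extent.

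**Figure D3:**
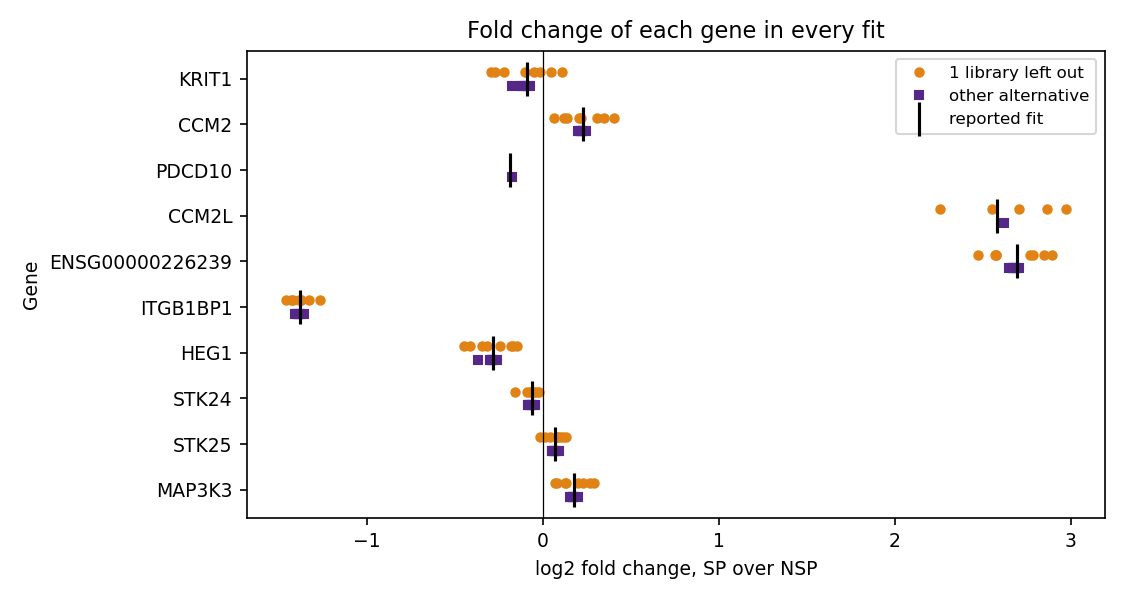
Log2 fold change of SP over NSP cells for each of the 10 genes in every fit in which it was tested: the reported fit (black bar; for CCM2L and PDCD10 the fit without a filter on low counts), fits with 1 library left out (orange) and other alternatives (purple). The values of CCM2L and ENSG00000226239 stay between 2.26 and 2.97, those of ITGB1BP1 between -1.46 and -1.27, and those of the other 7 genes between -0.45 and 0.40.

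Over the 17 fits the log2 fold change was 2.47 to 2.90 for ENSG00000226239 and -1.46 to -1.27 for ITGB1BP1, in the same libraries that chose them. CCM2L was tested in 7 fits. In those with a library left out it passed the filter on low counts through its SP libraries, so its values there are also a description only. CCM2, KRIT1, PDCD10, HEG1, STK24, STK25 and MAP3K3 were called in none of the fits that tested them, which were 2 for PDCD10 and 16 or 17 for the others.

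Levels can be compared between genes only per length, here as CPM per kb of annotated exon. HEG1 was highest, with 35.2 ± 9.62 CPM per kb in SP cells and 42.8 ± 10.1 in NSP cells (SD, n = 4 each). In SP cells ENSG00000226239 came next at 21.9 ± 8.70, followed by ITGB1BP1 at 6.42 ± 0.603, STK25 at 5.98 ± 0.451, STK24 at 5.31 ± 0.682, CCM2L at 5.08 ± 2.14, MAP3K3 at 4.65 ± 0.907 and CCM2 at 3.69 ± 0.754. Neighbours in this stretch of the order from ITGB1BP1 to CCM2 differed by less than their summed SDs. PDCD10 at 1.37 ± 0.603 and KRIT1 at 0.505 ± 0.204 were lowest. In NSP cells ITGB1BP1 stood second at 16.7 ± 2.81, ENSG00000226239 was at 3.42 ± 0.998 and CCM2L at 0.817 ± 0.475, below PDCD10 at 1.5 ± 0.209 and above KRIT1 at 0.549 ± 0.152. The paralogs CCM2 and CCM2L thus stood at 3.13 ± 1.01 and 0.817 ± 0.475 CPM per kb in NSP cells, and at overlapping levels in SP cells. The exon length of KRIT1, 21110 bp over all annotated transcripts, lowers its value in this order.

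The strand option used in counting is not given in the sources. Among all genes there were 595 pairs of a lncRNA with at least 50% of its exon length across a protein-coding gene of the opposite strand and at least 100 counts in the pair, and the lncRNA was the higher per kb in 88.2% of them. Exons of 7 of the 10 genes lie across exons of a gene on the opposite strand, and those of CCM2, PDCD10 and HEG1 do not. ENSG00000226239, with 12.6% of its exon length across CCM2L, does not meet the 50% rule and is not in the 595 pairs. It had 158 counts per kb over the 8 libraries and CCM2L 37.7, a ratio of 4.18. MAP3K3 had 58.6 counts per kb and LIMD2, which overlaps its 3' end by 418 bp, had 276. KRIT1 had 7.06 counts per kb and ANKIB1, whose start overlaps that of KRIT1 by 193 bp, had 23.7. The other pairs stood the other way round. ITGB1BP1 had 160 counts per kb and ASAP2 10.9, STK24 had 72.1 and FARP1 21.7, and STK25 had 78.2 and FARP2 21.6. FARP1 lies across 63.2% of the exon length of STK24, the largest such share among the members. With the counts of such partners added to each member, the log2 fold changes were -1.33 (standard error 0.17) for ITGB1BP1, 0.03 (standard error 0.25) for KRIT1, 0.13 (standard error 0.15) for STK24, -0.0027 (standard error 0.16) for STK25 and -0.23 (standard error 0.16) for MAP3K3. The sign of KRIT1, STK24, STK25 and MAP3K3 therefore changed with the addition, without a call either way. All counts of a partner were added, also those from outside the shared exons. The shared part was 2.61% of the exon length of ANKIB1, 21.1% of FARP1, 7.61% of FARP2 and 8.8% of LIMD2. These sums therefore also hold the partners' own levels, and the sign changes are not read as an effect of strand. ITGB1BP1 and ENSG00000226239 kept sign and call, but the addition was small, 79 counts to 1066 and 98 counts to 979 over the 8 libraries. Both were also chosen on this contrast, so nothing is read from this. Without the strand setting, reads of a gene and of its partner cannot be told apart. The setting bears on all 10 genes, also on those without such a partner. Levels and their order per kb are those of the assigned counts. Whether these reads came from the gene's own strand was not tested. The study's methods name far more raw reads per sample than the total counts hold, and the cause was not tested.

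**Figure D4:**
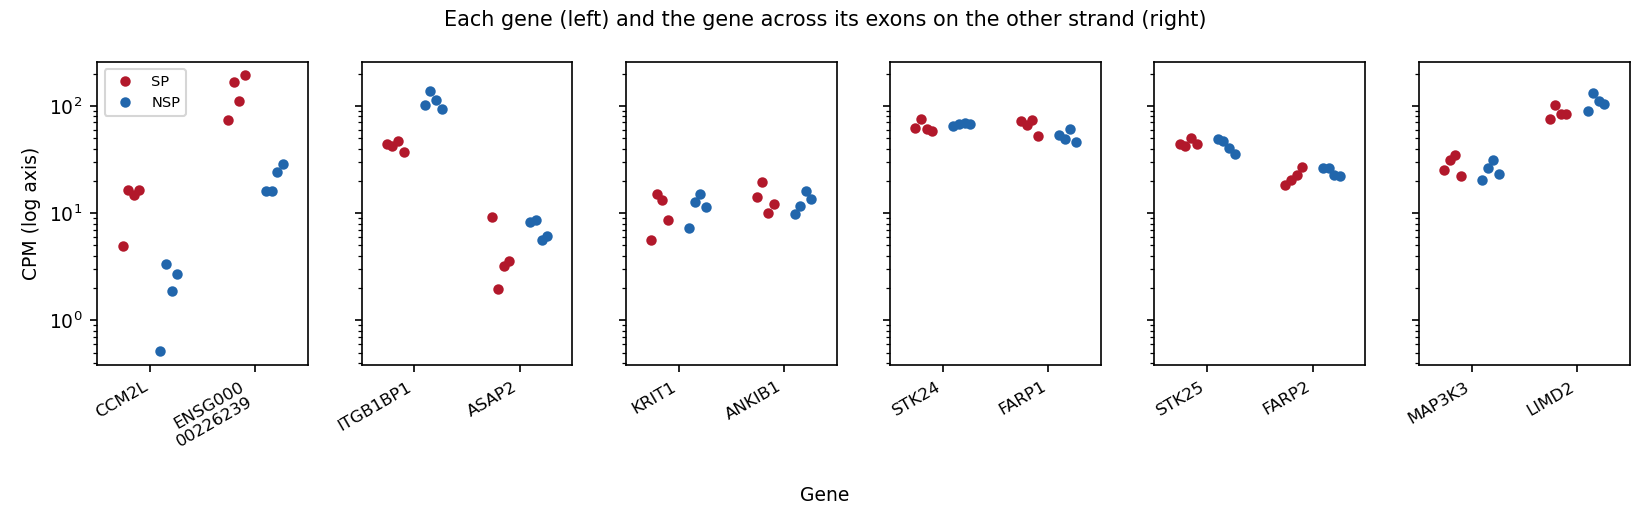
CPM on a log axis in each SP (red) and NSP (blue) library for 6 members, on the left of each panel, and for the gene whose exons lie across theirs on the other strand, on the right. CCM2L and ENSG00000226239 both stand higher in SP libraries, and no such split of the groups is seen in the partners of the other 5.

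The further genes of the pathway were described from 4 lists written by role, with 69 genes in all. The lists were chosen with earlier results of these data known, which limits what their p-values can show. All 69 had at least 1 count and 49 were tested. Of these, 0 were called higher in SP cells and 2 lower, ITGA5 and MYL9, where 3.66% of all tested genes were called in either direction. Before adjustment, 4 of the 49 passed a p under 0.05 upward and 3 downward, where 757 and 770 of all 9309 tested genes did. The pathway genes called were 0 higher and 2 lower with DESeq2, 0 higher and 1 lower with limma voom, 3 higher and 3 lower with the replicate block, and 0 either way without SP replicate 2, without SP replicate 4 or without NSP replicate 2. The median log2 fold change over the 49 genes was -0.031.

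Among the RAP1 and integrin partners, 10 of 15 were tested, 4 with a positive and 6 with a negative log2 fold change. Over all 9309 tested genes, 4820 were positive and 4489 negative. In the list 1 gene was called lower, where 2.03% of all tested genes were. ITGA5, the alpha subunit of the fibronectin receptor, had a mean of 21.9 ± 10.5 CPM over the SP libraries against 60.3 ± 36.2 CPM over the NSP libraries (SD, n = 4), and the groups overlapped. Its log2 fold change was -1.48 (standard error 0.39, edgeR quasi-likelihood test, Benjamini-Hochberg adjusted p = 0.0467). It was not called without SP replicate 2, 3 or 4 or without NSP replicate 1 or 2, with log2 fold changes of -1.73, -1.31, -1.29, -1.06 and -1.40, nor in limma voom, at -1.32. ITGB1, the beta-1 subunit whose tail ITGB1BP1 binds, had a mean of 52.8 ± 17.7 CPM over the SP libraries against 86.1 ± 20.2 CPM over the NSP libraries (SD, n = 4). It was not called (log2 fold change -0.72, standard error 0.24, edgeR, adjusted p = 0.12), but it was with the replicate number as a block (log2 fold change -0.73, adjusted p = 2.50e-04) and without a filter on low counts (-0.73, adjusted p = 0.0129). FLNA and TLN1, which link integrins to actin, had the most counts of the list, with log2 fold changes of -0.21 (standard error 0.19) and 0.25 (standard error 0.16). RAP1B, the better counted of the 2 RAP1 GTPases, stood at 0.16 (standard error 0.28).

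In the list of the third germinal centre kinase, STK26, and the STRIPAK phosphatase complex that holds these kinases, 11 of 18 genes were tested and 0 were called in either direction, while 2 passed an unadjusted p under 0.05 upward and 0 downward, beside 757 and 770 of the 9309 genes of the whole test. STK26 had 31 counts over the SP libraries and 51 over the NSP libraries, too few for the test. The genes with the most counts were PPP2R1A, the scaffold of the phosphatase PP2A, at -0.07 (standard error 0.14), and STRN4, a striatin, at -0.26 (standard error 0.16). With the replicate block, CTTNBP2NL, a cortactin-binding STRIPAK subunit, and GOLGA2, the Golgi protein that anchors these kinases, were called higher, with log2 fold changes of 1.12 and 0.53.

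In the list of the MAP3K3 cascade and KLF targets, 12 of 19 genes were tested, 8 with a positive and 4 with a negative log2 fold change. The median was 0.30, beside 0.015 over all tested genes. None was called in edgeR's quasi-likelihood test, with 2 at an unadjusted p under 0.05, both upward, beside 757 of all 9309 tested genes, and DESeq2 called 0 as well. KLF6, a transcription factor of the same family as KLF2 and KLF4, had a mean of 44 ± 9.65 CPM over the SP libraries against 26.2 ± 3.77 CPM over the NSP libraries (SD, n = 4). No NSP library reached the lowest SP library, and the fitted log2 fold change was 0.74 (standard error 0.21, edgeR quasi-likelihood test, Benjamini-Hochberg adjusted p = 0.0589). With the replicate block KLF6 was called higher, at 0.73 (adjusted p = 0.0033). MAPK7 (ERK5), the last kinase of the cascade, stood at 0.62 (standard error 0.26, adjusted p = 0.245), MAP2K5 above it at 0.62 (standard error 0.38, adjusted p = 0.454) and KLF4 at 0.59 (standard error 0.29, adjusted p = 0.321). KLF4 had a mean of 42.0 ± 22 CPM over the SP libraries against 27.5 ± 2.01 CPM over the NSP libraries (SD, n = 4), and its value fell to 0.21 without SP replicate 4. KLF2 was not tested, with 50 counts over the SP libraries and 38 over the NSP libraries. ADAMTS5, a versican-cleaving protease and a target of this cascade in endothelium, stood at 0.47 (standard error 0.29), and ADAMTS1, a related protease in the same list, at -0.47 (standard error 0.28). MAP2K3, a kinase below MAP3K3 in the p38 branch, stood at -0.03 (standard error 0.31). The remaining tested genes of the list were MAP3K2 at 0.08 (standard error 0.38), MAPK14 at -0.14 (0.31), MEF2A at 0.14 (0.30), MEF2D at -0.11 (0.22) and THBD at 0.45 (0.29).

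In the list of actomyosin and junction signalling, 16 of 17 genes were tested, 4 with a positive and 12 with a negative log2 fold change. MYL9, a regulatory light chain of nonmuscle and smooth muscle myosin, had a mean of 60.9 ± 11 CPM over the SP libraries against 103 ± 16.3 CPM over the NSP libraries (SD, n = 4), without overlap. Its log2 fold change was -0.75 (standard error 0.18, edgeR quasi-likelihood test, Benjamini-Hochberg adjusted p = 0.0264). It was not called without SP replicate 1, 2 or 4 or without NSP replicate 2 or 3, with values of -0.69, -0.70, -0.74, -0.74 and -0.65. The GTPase RHOA stood at -0.11 (standard error 0.14) and the actin-severing protein CFL1 at 0.06 (standard error 0.15).

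**Figure D5:**
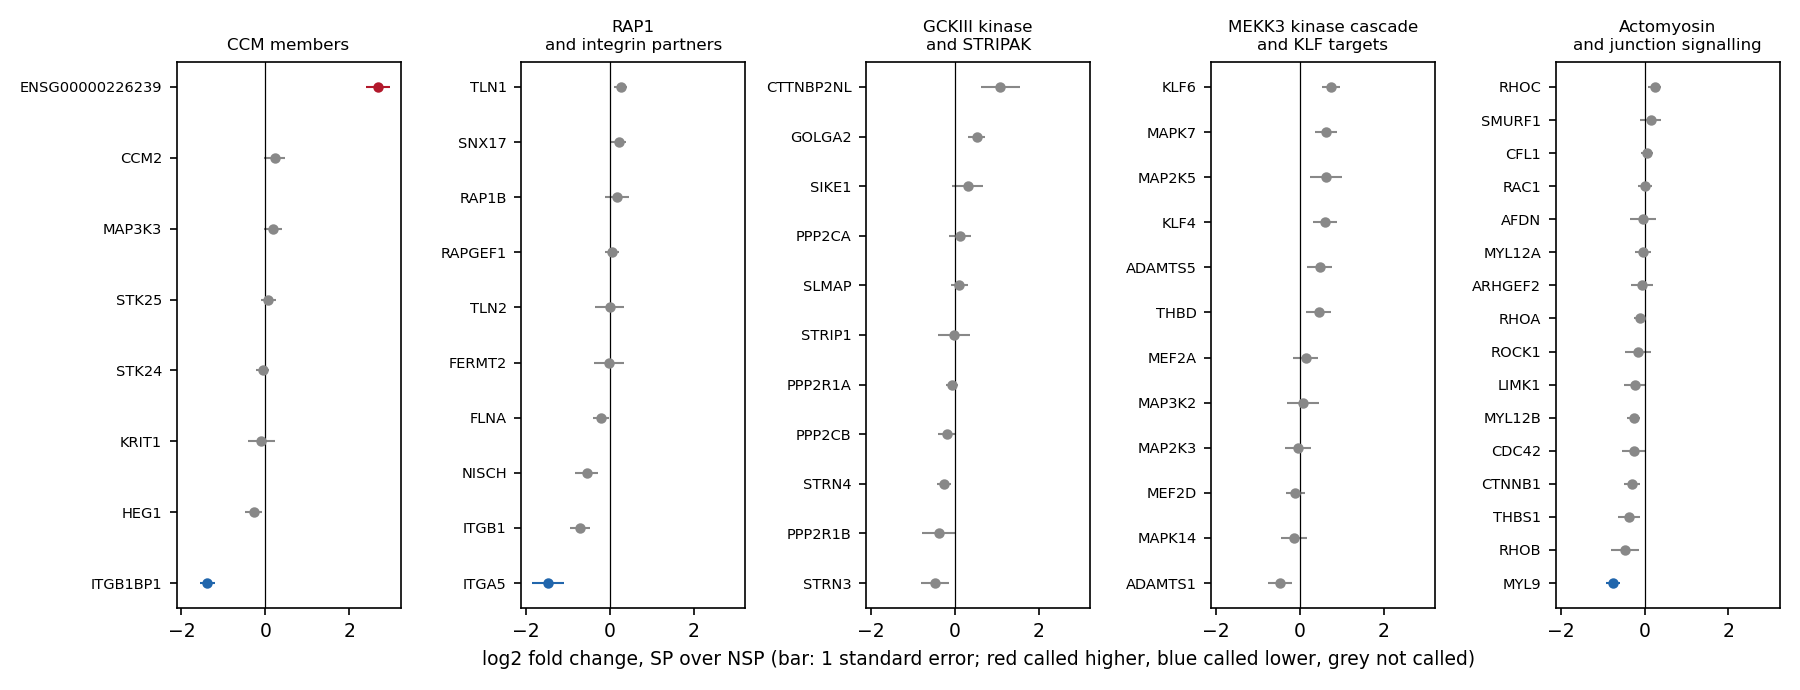
Log2 fold change of SP over NSP cells, with 1 standard error as a bar, for the tested genes among the members and in each of the 4 pathway lists. Called genes are coloured (red higher, blue lower in SP cells): ENSG00000226239, ITGB1BP1, ITGA5 and MYL9.

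The protein-coding genes next to CCM2L and ITGB1BP1 had log2 fold changes between -0.29 and 0.17 where they were tested. Around CCM2L, XKR7 had 0 counts in all 8 libraries, and PDRG1 and TM9SF4 had log2 fold changes of -0.29 (standard error 0.38) and -0.14 (standard error 0.19). Around ITGB1BP1, IAH1 had -0.23 (standard error 0.18) and MBOAT2 0.17 (standard error 0.33). Of these 4 tested genes 0 were called, where 3.66% of all tested genes were.

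The tested genes whose log2(CPM + 1) followed that of ENSG00000226239 most closely over the 8 libraries were PHF20, a chromatin reader, ZFAND5 and COX7C, a subunit of cytochrome c oxidase, with Pearson's r of 0.987, 0.987 and 0.986. Their log2 fold changes were 1.45, 0.82 and 0.62, each smaller than that of the lncRNA. For ITGB1BP1 they were the lncRNAs ENSG00000259007 and ERLNC1 and the monoglyceride lipase gene MGLL, with r of 0.984, 0.972 and 0.971 and log2 fold changes of -1.97, -1.14 and -1.77. These values are a description over 8 libraries that share depth and group, and with 9309 genes to choose from high values are found readily.

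The libraries held keratins of an epithelial line and few counts of endothelial genes, the tissue in which the CCM complex is best known. Of 12 endothelial markers, 11 were found in the table and 9 had a count, and their summed level was 0.706 to 3.94 CPM in SP libraries and 3.39 to 5.21 CPM in NSP libraries. TEK and EMCN were at 0 in all libraries, and CDH5 had 1 count in all. Epithelial markers summed to 3353 to 4682 CPM in SP libraries and 4571 to 6272 CPM in NSP libraries, almost all of it from KRT8, KRT18 and KRT7, while EPCAM and CDH1 had 3 and 24 counts in all. Mesenchymal markers summed to 299 to 464 CPM in SP libraries and 504 to 868 CPM in NSP libraries. Leukocyte markers summed to 41.9 to 96.0 CPM in SP and 19.99 to 57.6 CPM in NSP libraries, with PTPRC and CD3E at 0. Most of the leukocyte sum was CD14, with means of 65.6 CPM in SP and 33.5 CPM in NSP libraries. CD14 had a log2 fold change of 0.96 (standard error 0.33), with overlapping groups and no call. CD68 had means of 7.71 and 8.41 CPM. The mesenchymal sums did not overlap between the groups. Their largest part was VIM, with means of 308 CPM in SP and 523 CPM in NSP libraries, whose own groups overlapped. FN1 was lower and TWIST1 higher in SP cells, each without overlap, and CDH2 had a log2 fold change of -0.03 (standard error 0.24). The part of mesenchymal genes in the differences of ITGB1BP1, ITGA5 and MYL9 was not tested.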

How the data were processed

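RNA-seq counts of 4 SP and 4 NSP libraries of J82 cells were analysed. Per the labels and the study's methods, the reads (single-end, 50 bp) were mapped by the authors with STAR on hg19, and raw counts from featureCounts (Subread) over gencode version 19 genes were deposited per gene without normalization. Tool versions, the strand setting and the treatment of reads matching several genes are not given in the sources used here. Libraries were grouped by their titles.

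Symbols, positions and exons came from GENCODE release 44 mapped to GRCh37, joined by unversioned identifier (96.1% of 57820 genes; the others held 4.06% of counts), and promoters from RefSeq. Protein sequences were not used here, and PECAM1 was not matched. edgeR 4.0.16 in R 4.3.3 (TMM, filterByExpr with a minimum count of 10 and minimum total of 15, glmQLFit, glmQLFTest) compared SP with NSP cells without covariates, with adjustment over all tested genes. A standard error is the log2 fold change divided by the square root of F. Alternatives were scaling by upper quartiles or by the size factors of DESeq2, DESeq2 1.42.0, and limma 3.58.1 voom with sample quality weights. Further alternatives were no filter, a floor of 10 counts per library, testing against 1.3-fold, the replicate block, summed strands and leaving out each library. The fit was tested on simulated counts.

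Members and lists were chosen with earlier results of these data known. The text names all members, their opposite-strand partners, the neighbours of CCM2L and ITGB1BP1 apart from an item not reported here, the called and the 2 highest genes of each pathway list, and the 3 genes most like ENSG00000226239 and ITGB1BP1; other genes were chosen after their values were seen. Same-numbered SP and NSP libraries deviated together (correlations of 0.380, 0.203, 0.322 and 0.321). No source names a pairing, so the reported fit left the numbers out, and its standard errors and p-values ignore this likeness. The replicate block, given as an alternative, takes the numbers into the model. Replicates differed by more than sampling noise (chi-square over its degrees of freedom 5.61 to 13.5).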

Additional observations from a re-analysis of the deposited data

Results flagged for a closer look

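In 4 of 118 groups of 4 libraries, over the members and the tested pathway genes, 1 library stood well apart from its 3 replicates; about 1 in 20 such groups would do so by chance. Divided by the range of the group, the distance to the nearest library was 0.851 for CCM2L in SP cells, where replicate 1 was lowest, 0.879 for MAP2K3 in SP cells, where replicate 1 was highest, 0.836 for KLF6 in NSP cells, where replicate 1 was highest, and 0.842 for RHOA in SP cells, where replicate 3 was highest. Without SP replicate 1, CCM2L passed the filter on low counts through its SP libraries. No cause was tested.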

How the results depend on the processing

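ENSG00000226239 and ITGB1BP1, which were chosen on this contrast, kept direction and call under every alternative, from which nothing is read, and no member or pathway gene that was called changed sign. Of 1043 values of single genes under an alternative, 18 had another call, all of them of ITGA5, MYL9, ITGB1, CTTNBP2NL, GOLGA2 and KLF6. The members called higher were 2 with DESeq2 and without a filter, since CCM2L was then tested, 2 with summed strands, where CCM2L and the lncRNA share 1 summed value, and 1 to 2 with a library left out, where CCM2L passed the filter through its SP libraries; the members called lower were 1 throughout. The replicate block called 3 pathway genes higher (CTTNBP2NL, GOLGA2 and KLF6) in place of 0 and 548 genes higher and 651 lower over the table in place of 152 and 189; among the members, pathway genes, partners and neighbours it changed no other call than these and ITGB1. Pathway genes called lower were 1 with limma voom (MYL9), 0 when tested against 1.3-fold, a stricter null by its construction, and 0 to 2 with a library left out, and those called higher were 0 with each library left out. Without a filter 303 genes were higher and 381 lower, and against a fold change of 1.3 there were 51 and 67. Leaving out single libraries gave 69 to 165 higher and 89 to 181 lower, lowest without NSP replicate 2; without SP replicate 2 there were 91 and 110, and without NSP replicate 1 93 and 127. Other causes were not tested. Depth limits PDCD10, KRIT1 and CCM2L most, with at most 28 counts in any library.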

Other observations

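Fibronectin is the ligand of the receptor formed by ITGA5 and ITGB1, and its gene was called lower in SP cells. FN1 had a mean of 39.2 ± 5.50 CPM over the SP libraries against 93.6 ± 11.2 CPM over the NSP libraries (SD, n = 4), with a log2 fold change of -1.25 (standard error 0.17, edgeR quasi-likelihood test, Benjamini-Hochberg adjusted p = 8.63e-04), and no overlap between the groups. FN1 is from the list of mesenchymal markers, in which 5 of 7 genes were tested, 0 were called higher and 1 lower, where 1.63% and 2.03% of all tested genes were. In the same list VIM, an intermediate filament gene, stood at -0.76 (standard error 0.23, edgeR, adjusted p = 0.0784), with overlapping groups. TWIST1, a transcription factor of mesenchymal cells, stood at 0.99 (standard error 0.29, edgeR, adjusted p = 0.0728), with every SP library above every NSP library.

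Among the epithelial markers, 5 of 9 were tested, 0 were called higher and 1 lower, where 1.63% and 2.03% of all tested genes were. The gene called lower in SP cells was KRT7 (log2 fold change -1.35, standard error 0.22, edgeR, adjusted p = 0.00342). It had 252 ± 85.2 CPM against 646 ± 126 CPM in NSP cells (SD, n = 4 each). KRT8 and KRT18 were not called, at -0.29 (standard error 0.17) and -0.11 (standard error 0.15). Nor were KRT19, at -0.24 (standard error 0.42), and UPK2, which went the other way at 0.22 (standard error 0.35).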
